A study of Mus musculus with 6 samples.

Results

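The genes described here encode the metalloproteases of the ADAM and ADAMTS families and the ADAMTS-like (ADAMTSL) proteins. They were chosen by name, as every protein-coding gene of the count table whose symbol is Adam, Adamts or Adamtsl followed by a number. This gave 58 of the 56748 genes in the table, of which 34 are ADAM, 19 are ADAMTS and 5 are ADAMTSL genes.

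RNA was sequenced from primary stromal cells that had spent 48 h on Matrigen plates of 12 kPa stiffness, whose coating was type I collagen (PureCol, 0.05 mg/mL). The comparison asks how aortic carboxypeptidase-like protein (ACLP), a secreted matrix protein that binds collagen, changes gene expression when it is part of the collagen. In the col1-ACLP group (3 libraries) the collagen was polymerized with 30 nM recombinant ACLP, and in the col1 group (3 libraries) with 0 nM. Both groups were WT cells from male and female C57BL/6 mice (spelled C57B1/6 in the labels) of 12 weeks. The cells were those left after adipocytes are removed from digested gonadal white fat (its stromal vascular fraction), plated directly, and the labels give no difference between the groups but ACLP. The labels do not say whether the libraries of a group came from separate animals or cultures, and p-values therefore measure the spread between these libraries.

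ADAMs are mostly membrane-anchored enzymes that cut the outer part off other membrane proteins, a step called ectodomain shedding, and some also bind integrins through a disintegrin domain. ADAMTS enzymes are secreted, bind the matrix through thrombospondin type 1 repeats, and cleave proteoglycans, procollagens and other matrix proteins. ADAMTSL proteins share those repeats with the ADAMTS enzymes but carry no protease domain, and several of them bind fibrillin microfibrils. In fat, the remodelling of collagen and proteoglycan by stromal cells is part of how the tissue expands and scars.

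The catalytic residues of these enzymes can be read in their genes. An active enzyme of these families holds its zinc ion with 3 histidines in a short conserved stretch. The stretch also carries a glutamate and, at its eighth position, usually a glycine. This stretch was searched for in frame in the GENCODE vM39 coding sequences of GRCm39, with glycine, asparagine or serine allowed at the eighth position. Asparagine and serine were added after a search with glycine alone had left out Adamts15 and 5 other ADAMTS genes. The stretch was found in 21 of 34 ADAM, 19 of 19 ADAMTS and 0 of 5 ADAMTSL genes. The ADAMTS sites carry glycine in 13 genes, asparagine in 5 (Adamts1, Adamts4, Adamts9, Adamts15 and Adamts20) and serine in Adamts8. An intron interrupts the codons in 19 of 19 ADAMTS genes but in 1 of 21 ADAM genes, Adam10. The sites of the 3 genes that passed the test below, and of the most abundant ADAMTS and ADAM genes, are printed here as 11 codons from 5′ to 3′ on the coding strand, with the codons of the histidines, the glutamate and the eighth position in capitals.
Adamts6: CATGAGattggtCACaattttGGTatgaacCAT
Adamts12: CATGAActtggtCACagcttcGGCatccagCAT
Adamts15: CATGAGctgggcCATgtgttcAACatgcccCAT
Adamts5: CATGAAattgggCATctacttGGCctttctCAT
Adam9: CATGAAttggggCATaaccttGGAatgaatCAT

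Of these, Adamts6 and Adamts12, the genes that rose on col1-ACLP, carry the glycine codon, and Adamts15, the gene that fell, carries the asparagine codon. The class does not show that pattern: the median log2 fold change was −0.105 for the 10 tested ADAMTS genes with glycine and 0.172 for the 5 with asparagine. A link between codon and direction was not tested. In GRCm39 the printed codons of Adamts6 lie at chr13:104489355-104503317 on the plus strand and those of Adamts12 at chr15:11241615-11255650 on the plus strand, each range including the intron between them. The codons of Adamts15 lie at chr9:30822551-30822986 on the minus strand, again with an intron inside the range. The whole genes, all protein-coding, span chr13:104424343-104633203 for Adamts6 (ENSMUSG00000046169), chr15:11064876-11349317 for Adamts12 (ENSMUSG00000047497) and chr9:30810451-30833748 for Adamts15 (ENSMUSG00000033453). No other counted gene overlaps any of the 3, and at most 0.15% of their 31-base words occur in another gene's transcripts.

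Before any comparison, the libraries were checked. They held 33343651 to 47142754 counts, so that 3 counts, taken as the detection floor, equal 0.0624 to 0.0889 CPM (CPM, the count scaled to a common library total after TMM normalization). The labels call the cells mesenchymal stem cells, and all 11 stromal progenitor markers were counted (summed level 18000 to 26390 CPM on col1-ACLP and 16760 to 19520 CPM on col1). Most of that sum is Col1a1 and Col3a1, with means of 8690 and 9069 CPM on col1-ACLP and 5022 and 6886 CPM on col1. It therefore mainly follows these collagens. Markers of other cells of the fraction were counted as well: the 11 macrophage markers summed to 636.8 to 716.9 CPM on col1-ACLP and 626.9 to 739.7 CPM on col1, and the 6 endothelial markers to 641.2 to 743.8 CPM on col1-ACLP and 661 to 765.3 CPM on col1. The dendritic marker Cd209a and the B cell marker Ms4a1 were at 0 in all libraries. The libraries are therefore a mixture, in which fewer cells of a type and less RNA per cell cannot be told apart.

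Of the 58 genes, 36 passed the filter on low counts and were tested: 15 ADAM, 16 ADAMTS and all 5 ADAMTSL genes. The remaining 22, of which 19 are ADAM and 3 are ADAMTS genes, had at most 51 counts over the 6 libraries together. Most of these ADAM genes are known for expression in the testis or epididymis, such as the sperm proteins Adam2 (11 counts), Adam3 (12 counts) and Adam18 (6 counts). Adam24, Adam26a, Adam26b, Adam29, Adam34, Adam34l, Adam39 and Adam6a were at 0 in all 6 libraries. Adam7, of the epididymis, had the most of the untested genes, with counts of 6, 2 and 22 on col1-ACLP and 0, 18 and 3 on col1. Adamts13, the protease of von Willebrand factor, had 44 counts, and Adamts17 and Adamts18 had 28 and 11. At these counts no fold change was fitted for the 22 genes.

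Among tested genes, the genes of widely expressed proteases were the most abundant. Levels were compared between genes as CPM per kilobase of the gene length given in the table, averaged over the 6 libraries. Among ADAM genes the highest were the sheddase Adam9 at 56.1, Adam10, the main sheddase of Notch receptors, at 27.3, and Adam12, a marker of activated fibroblasts that also acts as a sheddase, at 22.7. Among ADAMTS genes the aggrecan-cleaving Adamts5 was at 46.8, the versican-cleaving Adamts1 at 45.5 and Adamts2, which removes the N-propeptide of procollagens, at 37.5. ADAMTSL genes were lower, with Adamtsl5 at 5.45, Adamtsl1 at 4.28 and Adamtsl4 at 4.22 CPM per kilobase. The 9 tested ADAM genes with a zinc-binding stretch had a median of 17.1 CPM per kilobase and the 6 without it (Adam4, Adam5, Adam11, Adam22, Adam23 and Adam32) one of 0.269.

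**Figure D1:**
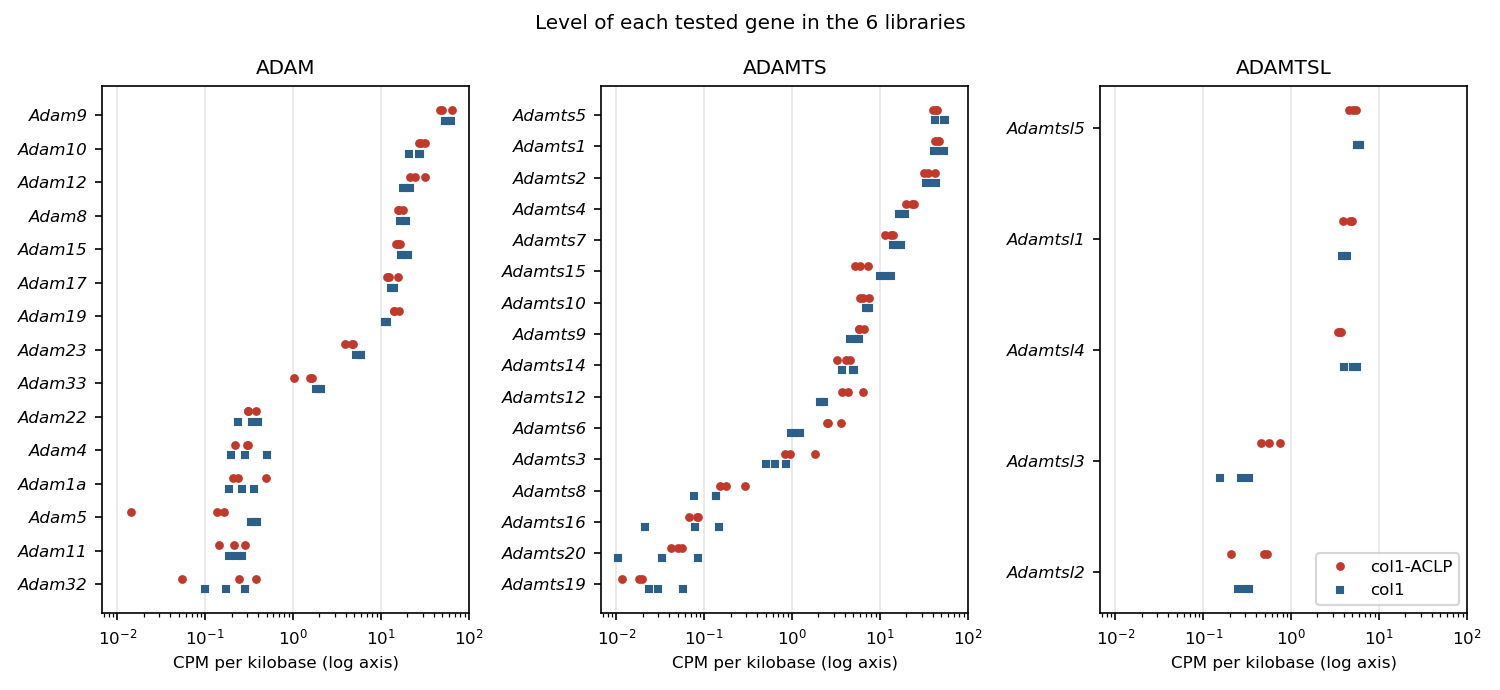
Levels of the 36 tested genes in CPM per kilobase on a log axis, 1 row per gene and 1 panel per class, with col1-ACLP libraries as circles above and col1 libraries as squares below. Rows are ordered by their mean, from Adam9 at 56.1 and Adamts5 at 46.8 CPM per kilobase at the top to Adamts19 at 0.0265 at the bottom of the middle panel.

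On col1-ACLP, 2 of the 36 tested genes were raised and 1 was lowered relative to col1, with a call needing an adjusted p below 0.05 together with a log2 fold change beyond 0.58 in size (edgeR quasi-likelihood test, Benjamini-Hochberg adjusted over all 17717 tested genes). Over all tested genes 1.38% were called, 0.660% raised and 0.722% lowered. The 3 called genes are all ADAMTS genes. In the ADAM class 0 of 15 and in the ADAMTSL class 0 of 5 genes were called by edgeR, although 5 ADAM and 2 ADAMTSL genes had an unadjusted p under 0.05. DESeq2 called 1 gene of these classes, Adamtsl3, and limma-voom called 0.

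The family as a whole did not move to one side. Of the 36 genes, 16 had a positive and 20 a negative log2 fold change, with a median of −0.04 against 0.01 over all tested genes. The medians were −0.07 for ADAM, −0.04 for ADAMTS and 0.15 for ADAMTSL genes. An unadjusted p under 0.05 was found in 14 genes, 7 higher and 7 lower on col1-ACLP, where 14.9% of all tested genes had one (7.59% higher and 7.26% lower). The libraries of the groups did not overlap in 15 of the 36 genes, against 20.4% of all tested genes. Together the 58 genes took 0.307%, 0.247% and 0.265% of the counts in the col1-ACLP libraries and 0.282%, 0.295% and 0.282% in the col1 libraries, so that the groups overlapped.

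**Figure D2:**
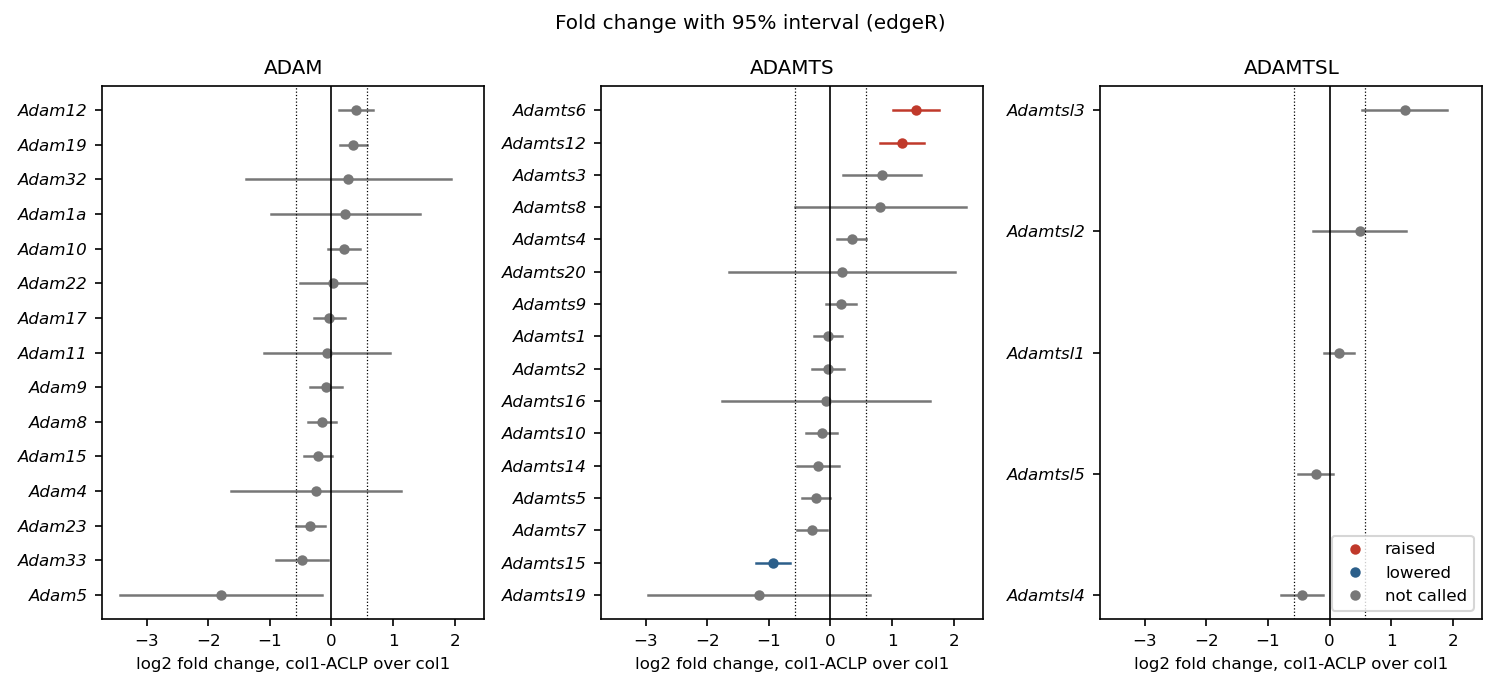
Log2 fold change of col1-ACLP over col1 for each of the 36 tested genes (points) with its 95% interval from edgeR (lines), by class. Dotted lines mark the fold minimum of 0.58 in each direction, and colour marks the 2 raised genes (Adamts6 at 1.39 and Adamts12 at 1.16), the lowered gene (Adamts15 at −0.93) and the 33 that were not called.

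Adamts6 encodes a secreted protease that is related to Adamts10 and is known to act on fibrillin microfibrils and cell junctions. It was at 27.9, 19.8 and 19.4 CPM on col1-ACLP and at 7.65, 9.53 and 8.41 CPM on col1. The 3 col1-ACLP libraries all lay above the 3 col1 libraries, with col1-ACLP 1 the highest of all. Its log2 fold change was 1.39 ± 0.18 (SE, n = 3 libraries per group, edgeR adjusted p = 0.000363). Without col1-ACLP 1 it was 1.195 (edgeR adjusted p = 0.00242), and over all 14 alternative settings it lay between 1.195 and 1.48, with an adjusted p of at most 0.00437. Its relative Adamts10, an enzyme that binds fibrillin-1, was the more abundant of the pair per kilobase (6.92 against 1.98 CPM per kilobase) and had a log2 fold change of −0.14 (95% interval −0.39 to 0.11).

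Adamts12 encodes a secreted protease that cleaves cartilage oligomeric matrix protein (COMP). It was at 69.9, 40.1 and 47.8 CPM on col1-ACLP and at 25.2, 23.1 and 22.5 CPM on col1. Again the groups did not overlap, and col1-ACLP 1 was well above the other libraries. The log2 fold change was 1.16 ± 0.17 (SE, n = 3 libraries per group, edgeR adjusted p = 0.00117). It was 0.90 without col1-ACLP 1 (edgeR adjusted p = 0.00385), the lowest value over the alternatives, and 1.32 at the highest, with an adjusted p of at most 0.0109 over the alternatives.

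Adamts7, which shares the domain layout of Adamts12 and cleaves COMP as well, was not called; the difference between the 2 genes was not tested. It was at 88.6, 71.9 and 84.1 CPM on col1-ACLP and at 101, 88.8 and 111 CPM on col1, so that all col1-ACLP libraries were lower by a small margin. The log2 fold change was −0.30 ± 0.12 (edgeR adjusted p = 0.231). Tbc1d2b lies over Adamts7 on the opposite strand with 231.4% as many counts, and the use of strand in counting is not given in the sources used here, so the value of Adamts7 is uncertain. Comp itself had a log2 fold change of 0.74 ± 0.71 (edgeR adjusted p = 0.703).

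Adamts15, which cleaves versican and aggrecan, moved the other way. It was at 75.1, 54.2 and 61.4 CPM on col1-ACLP and at 138, 104 and 123 CPM on col1. The highest col1-ACLP library stayed below the lowest col1 library. Its log2 fold change was −0.93 ± 0.13 (SE, n = 3 libraries per group, edgeR adjusted p = 0.00111), between −1.07 and −0.83 over the 14 alternatives, with an adjusted p of at most 0.0116.

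**Figure D3:**
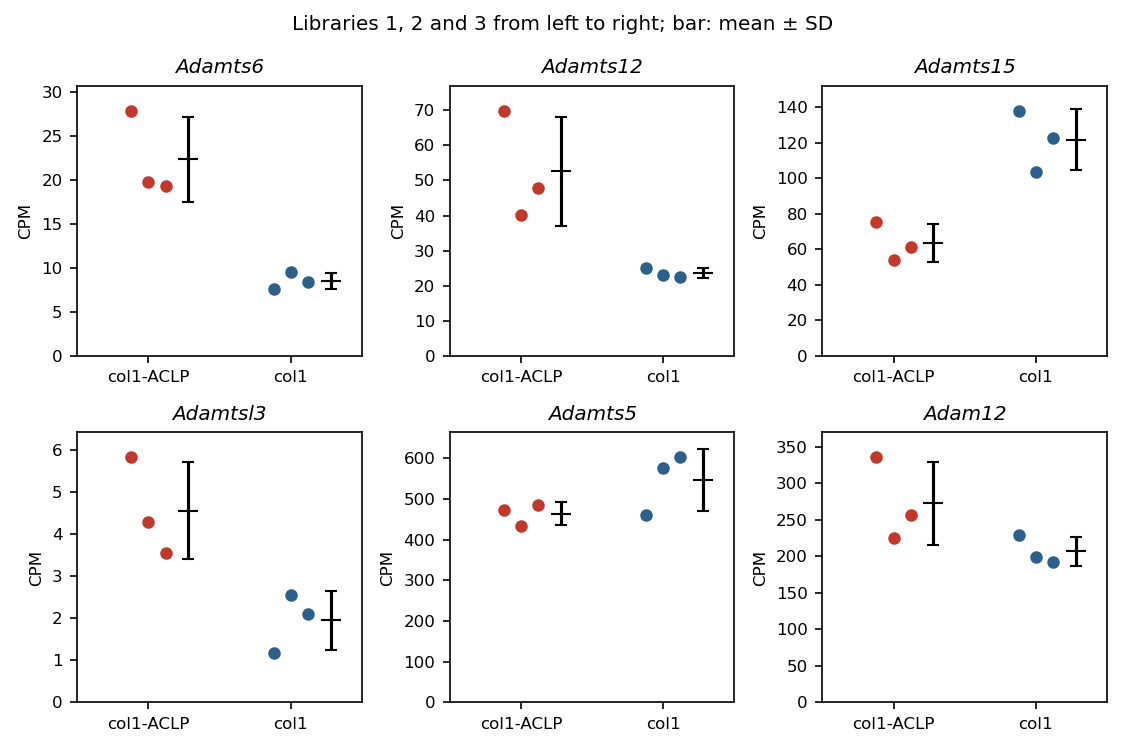
CPM of 6 genes in each library, with col1-ACLP to the left of col1 and libraries 1, 2 and 3 from left to right; the bar beside each group is its mean ± SD (n = 3). Adamts6 and Adamts12 lie higher on col1-ACLP and Adamts15 lower without overlap, Adamtsl3 (5.84, 4.30 and 3.56 against 1.19, 2.56 and 2.11) does not overlap either, and Adamts5 and Adam12 overlap.

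Adamts15 is 1 of 7 proteoglycan-cleaving ADAMTS genes, and the only one of the 7 that was called. Adamts5 was at 472, 433 and 486 CPM on col1-ACLP and at 460.4, 576 and 603 CPM on col1, where col1 1 lay within the col1-ACLP range. Its log2 fold change was −0.24 ± 0.11 (edgeR adjusted p = 0.323). Adamts1 was at 248, 225 and 241 CPM on col1-ACLP and at 218, 285 and 231 CPM on col1, with the groups overlapping and a log2 fold change of −0.04 (95% interval −0.27 to 0.19). Adamts4, an aggrecanase like Adamts5, was at 118, 111 and 96.7 CPM on col1-ACLP and at 79.3, 83.2 and 93.5 CPM on col1. All col1-ACLP libraries of Adamts4 were above all col1 libraries, but by little, and its log2 fold change of 0.35 ± 0.11 did not pass (edgeR adjusted p = 0.133). The value of Adamts4 is uncertain too, since the use of strand in counting is not given. Summed over the 7 genes per kilobase, the level was 129, 117 and 122 on col1-ACLP and 118, 140.5 and 136 on col1, so that the groups overlapped and Adamts15 made up a small part of it. Adamts9 had a log2 fold change of 0.17 (95% interval −0.07 to 0.41), and the intervals of the scarce Adamts8 and Adamts20 were wider than 2 log2 units.

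The 3 procollagen N-proteinase genes, Adamts2, Adamts3 and Adamts14, were not called. Adamts2 was at 400.5, 301 and 333 CPM on col1-ACLP and at 406, 343 and 316 CPM on col1. These ranges nearly coincide, and the log2 fold change was −0.04 (95% interval −0.29 to 0.21). Adamts3, which also activates the lymphatic growth factor VEGF-C, was at 9.88, 4.49 and 5.19 CPM on col1-ACLP and at 3.50, 4.68 and 2.74 CPM on col1. Its log2 fold change of 0.84 ± 0.30 (edgeR adjusted p = 0.186) was 0.41 without col1-ACLP 1, which was the highest library. Adamts14 had a log2 fold change of −0.20 (95% interval −0.55 to 0.15). The less characterized Adamts16 and Adamts19 were below 1.1 CPM in every library, with 95% intervals of −1.76 to 1.62 and −2.96 to 0.65.

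Among ADAM genes, the largest positive log2 fold changes of genes above 1 CPM were those of Adam12 and Adam19, both sheddases with links to the muscle and heart. Adam12 was at 336, 225 and 257 CPM on col1-ACLP and at 229, 199.7 and 192 CPM on col1. The col1-ACLP 2 library lay below col1 1, so the groups overlapped, and the log2 fold change was 0.40 ± 0.13 (edgeR adjusted p = 0.138). Without col1-ACLP 1 the value for Adam12 was 0.22 (edgeR adjusted p = 0.489), and over the alternatives its adjusted p ran from 0.019 to 0.489 with the fold change below the minimum in each. Adam19 was at 115, 99.5 and 101 CPM on col1-ACLP and at 84.7, 79.9 and 81.7 CPM on col1. Its groups did not overlap, with a log2 fold change of 0.35 ± 0.10 that did not pass adjustment (edgeR adjusted p = 0.0961).

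The 95% intervals of Adam8, Adam9, Adam10, Adam15 and Adam17 included 0. Adam9 was at 269.6, 195 and 208 CPM on col1-ACLP and at 221, 260.4 and 232 CPM on col1, with a log2 fold change of −0.08 (95% interval −0.34 to 0.17). Adam10 was at 156, 135 and 140.2 CPM on col1-ACLP and at 102, 139 and 133 CPM on col1, with col1 1 the lowest library, a log2 fold change of 0.21 (95% interval −0.05 to 0.46) that was 0.08 without col1 1. Adam17, the sheddase of tumour necrosis factor, had −0.03 (95% interval −0.29 to 0.22), and Iah1 overlaps it on the opposite strand with 31.42% as many counts. Adam8 and Adam15 had −0.15 and −0.22, with 95% intervals of −0.38 to 0.08 and −0.45 to 0.01.

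The ADAM genes with an unadjusted p under 0.05 and lower values on col1-ACLP were Adam23, Adam33 and Adam5. Adam23 encodes a non-catalytic ADAM that binds integrins and LGI proteins in the nervous system. It was at 83.9, 70.3 and 86.3 CPM on col1-ACLP and at 106, 106 and 93.7 CPM on col1, without overlap, and its log2 fold change was −0.34 ± 0.11 (edgeR adjusted p = 0.136). Adam33, linked to asthma in human genetics, was at 5.62, 8.95 and 8.44 CPM on col1-ACLP and at 11.3, 9.97 and 10.8 CPM on col1, again without overlap (−0.47 ± 0.20, edgeR adjusted p = 0.270). Adam5, best known from sperm, was at 0.426, 0.045 and 0.516 CPM on col1-ACLP and at 1.04, 1.17 and 1.22 CPM on col1. The col1-ACLP 2 value of Adam5 lies below the floor of 3 counts, and its log2 fold change of −1.80 ± 0.78 did not pass adjustment (edgeR adjusted p = 0.283).

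Of the other tested ADAM genes, the synaptic Adam22 and Adam11, which are non-catalytic like Adam23, had log2 fold changes of 0.03 and −0.07. Adam1a, Adam4 and Adam32, all known from the testis, were below 2 CPM in every library, with standard errors of 0.57, 0.66 and 0.79. Adam1a shares 53.38% of its 31-base words with other genes, mainly Adam1b, and Adam4 shares 33.31% and lies with Cox16 on the same strand, so both are uncertain.

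ADAMTSL genes were not called by edgeR. Adamtsl3, a matrix protein gene linked to body height in human genetics, came nearest: it was at 5.84, 4.30 and 3.56 CPM on col1-ACLP and at 1.19, 2.56 and 2.11 CPM on col1. All col1-ACLP libraries were higher, and the log2 fold change was 1.22 ± 0.33 (SE, n = 3 libraries per group, edgeR adjusted p = 0.0681). DESeq2 called it raised (adjusted p = 0.0202), as did edgeR with no filter on low counts (adjusted p = 0.0162), and over the 14 alternatives the adjusted p ran from 0.0162 to 0.273. Adamtsl4, mutated in displacement of the lens, was at 15.69, 14.996 and 14.28 CPM on col1-ACLP and at 23.4, 21.3 and 16.6 CPM on col1. Its groups did not overlap, with a log2 fold change of −0.45 ± 0.16 (edgeR adjusted p = 0.176).

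Adamtsl5, a fibrillin-binding protein, was at 23.8, 21.5 and 25.8 CPM on col1-ACLP and at 29.0, 26.4 and 27.8 CPM on col1. The values of Adamtsl5 on col1-ACLP lie just below those on col1 (95% interval −0.51 to 0.05). Adamtsl1 was at 59.9, 62.6 and 50.3 CPM on col1-ACLP and at 48.5, 55.0 and 51.7 CPM on col1, with overlap (95% interval −0.10 to 0.40). Adamtsl2, mutated in geleophysic dysplasia, had a log2 fold change of 0.49 (95% interval −0.26 to 1.25).

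The library col1-ACLP 1 stood out within its group. It was the highest of the 3 col1-ACLP libraries for 24 of the 36 tested genes, and for 13 of the 16 ADAMTS genes, against 38.1% of all tested genes. The 3 calls were present without it, as given above for Adamts6 and Adamts12 and at −1.07 (edgeR adjusted p = 0.000592) for Adamts15.

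Other measures also differed between the groups. The ribosomal RNA gene Rn18s-rs5, read in polyA libraries as a sign of RNA handling, was at 4864 to 5919 CPM on col1-ACLP and at 2463 to 3255 CPM on col1. Of the 4 tested mast cell markers 2 were lowered, Mcpt4 (log2 fold change −3.18, edgeR adjusted p = 0.0111) and Tpsb2 (−1.56, 0.0107). The means of Mcpt4 and Tpsb2 were 0.201 and 2.04 CPM on col1-ACLP and 1.85 and 6.03 CPM on col1. The mast cell list summed to 28.02 to 35.59 CPM on col1-ACLP and 37.36 to 41.26 CPM on col1. Most of that sum is Kit, with means of 30.18 CPM on col1-ACLP and 30.98 CPM on col1 (log2 fold change −0.04). Of the 5 mesothelial markers Upk3b was lowered (summed level of the list 176.8 to 188.7 CPM on col1-ACLP and 150 to 213.8 CPM on col1). Of the 11 stromal progenitor markers 1 was raised (Col1a1, log2 fold change 0.79) and 3 were lowered (Ly6a at −0.68, Cd34 at −0.65 and Pi16 at −1.16). Mural markers summed to 221.2 to 310.8 CPM on col1-ACLP and 205.7 to 223.1 CPM on col1. Their part in the values of the protease genes was not tested.

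The genes that work with these proteases were read from 6 lists of 82 genes, of which 80 were tested. In these, 7 genes were raised and 2 lowered, and a further 7 passed the adjusted p at a smaller fold (4 higher and 3 lower). Over all tested genes 1.38% were called, 0.660% raised and 0.722% lowered. With the adjusted p alone, 364 of all 17717 tested genes passed (165 higher and 199 lower), beside 16 of the 80 list genes. Over the 80 genes the median log2 fold change was 0.06, against 0.01 over all tested genes. The lists were chosen with earlier results of these data known, so these counts beside all tested genes are no test of the lists.

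In the list of metalloprotease inhibitors and clearance genes, 2 of 7 were raised and 0 lowered, with a median log2 fold change of 0.34. Timp3, the matrix-bound inhibitor that blocks ADAM17 and several ADAMTS enzymes, was at 70.8, 60.1 and 58.9 CPM on col1-ACLP and at 24.5, 39.6 and 28.4 CPM on col1. It rose by 1.03 ± 0.15 on the log2 scale (edgeR adjusted p = 0.00152), without overlap of the groups. Timp1, a secreted inhibitor with little action on most ADAMs other than ADAM10, was at 2174, 2797 and 2369.5 CPM on col1-ACLP and at 1671, 1375 and 1705 CPM on col1. It rose by 0.63 ± 0.11 (edgeR adjusted p = 0.00633), but without col1-ACLP 2 its fold change of 0.52 missed the minimum, as it did at 0.53 without col1 2.

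Timp2, which also takes part in the activation of a matrix metalloprotease, was lower. It was at 436, 429 and 432 CPM on col1-ACLP and at 621, 615 and 567 CPM on col1, a log2 fold change of −0.48 ± 0.09 that passed the adjusted p (0.0104, edgeR) but not the fold minimum, and without col1-ACLP 3 missed the p as well (0.0735). Timp4 was at 0.551, 0.770 and 0.136 CPM on col1-ACLP and at 0.711, 0.957 and 1.08 CPM on col1, with overlap (edgeR adjusted p = 0.628).

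The list of ADAM10 and ADAM17 partners holds tetraspanins and iRhoms, which carry these enzymes to the cell surface, and adaptor proteins. The adaptors Sh3pxd2a and Sh3pxd2b were kept in the list but are not taken as partners of these enzymes in particular. Of the 10 tested genes 0 were called by edgeR, DESeq2 or limma-voom, and the median log2 fold change was −0.14. An unadjusted p under 0.05 by edgeR was found in 3 of them, against 14.9% of all tested genes. Sh3pxd2a was higher on col1-ACLP (log2 fold change 0.26), and Sh3pxd2b (−0.27) and Tspan15 (−0.56) were lower. Among 4 proprotein convertases, which cut the inhibitory propeptide off ADAM and ADAMTS enzymes, Pcsk5 was raised. It was at 57.4, 46.8 and 50.5 CPM on col1-ACLP and at 33.3, 29.8 and 33.3 CPM on col1, a log2 fold change of 0.68 ± 0.12 (edgeR adjusted p = 0.0064).

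Among 30 membrane proteins that ADAMs shed, 1 was called. Ncam1, a cell adhesion molecule, was at 52.4, 49.8 and 46.3 CPM on col1-ACLP and at 16.1, 14.0 and 19.7 CPM on col1, a log2 fold change of 1.58 ± 0.14 (edgeR adjusted p = 1.12e-05). Notch1, a receptor cut by ADAM10, was at 39.3, 32.9 and 32.3 CPM on col1-ACLP and at 23.8, 22.7 and 25.7 CPM on col1. The groups of Notch1 did not overlap, and its log2 fold change of 0.54 ± 0.13 passed the adjusted p (0.0446, edgeR) at a fold below the minimum. That pass was lost without each of the 6 libraries in turn (edgeR adjusted p 0.0588 to 0.199), with upper quartile factors (0.0507) and with library totals (0.0644). The median of the 30 genes was −0.01.

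The 13 tested ADAMTS substrates had a median log2 fold change of 0.48, with 1 gene raised and 0 lowered. Col1a1, a chain of the type I procollagen that Adamts2, Adamts3 and Adamts14 process, was at 10471, 6780.3 and 8819 CPM on col1-ACLP and at 6045, 4637 and 4383 CPM on col1. All col1-ACLP libraries were higher, and the log2 fold change was 0.79 ± 0.14 (edgeR adjusted p = 0.00633). Its partner chain Col1a2 was at 7066, 5016 and 5931 CPM on col1-ACLP and at 4752, 4203 and 4007 CPM on col1, a log2 fold change of 0.47 ± 0.11 (edgeR adjusted p = 0.0398).

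Bgn and Dcn encode the related small proteoglycans biglycan and decorin. Bgn was at 2763, 2248 and 2465 CPM on col1-ACLP and at 1934, 1736 and 1639 CPM on col1 (0.49 ± 0.10, edgeR adjusted p = 0.0155). Dcn was at 1550.2, 1444 and 1448 CPM on col1-ACLP and at 1895, 2247 and 2464 CPM on col1 (−0.57 ± 0.10, edgeR adjusted p = 0.00668). In Col1a2, Bgn and Dcn the groups did not overlap, and all 3 passed the adjusted p at a fold below the minimum. Bgn missed the p without col1-ACLP 3, col1 2 or col1 3 (0.0711 to 0.114). Col1a2 missed it without col1-ACLP 1, col1-ACLP 3, col1 2 or col1 3 (0.105 to 0.185), with upper quartile factors (0.0523) and with library totals (0.0609).

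Versican, which Adamts1, Adamts4, Adamts5, Adamts9, Adamts15 and Adamts20 can cleave, is encoded by Vcan, with a log2 fold change of 0.48 ± 0.14 (edgeR adjusted p = 0.098). Acan, the aggrecan gene, had a standard error of 0.93.

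In the list of microfibril proteins and of enzymes that fucosylate thrombospondin repeats, 2 of 16 genes were raised and 2 lowered. Ltbp2, a fibrillin-binding protein, was at 650.1, 464 and 521 CPM on col1-ACLP and at 358, 317 and 346 CPM on col1, a log2 fold change of 0.68 ± 0.12 (edgeR adjusted p = 0.0051). Fbn1, fibrillin-1 itself, was at 1049.5, 536 and 697 CPM on col1-ACLP and at 483, 498 and 391 CPM on col1. The call of Fbn1 (0.73 ± 0.17, edgeR adjusted p = 0.0371) was lost when any library but col1-ACLP 2 was left out. Its log2 fold change was 0.43 without col1-ACLP 1 and 0.62 to 0.79 without each of col1-ACLP 3, col1 1, col1 2 and col1 3 (edgeR adjusted p from 0.0565 to 0.183 over these 5).

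The 2 lowered genes of the same list encode elastic fibre proteins. Mfap2 was at 11.1, 8.97 and 10.4 CPM on col1-ACLP and at 18.08, 14.48 and 20.003 CPM on col1 (−0.79 ± 0.17, edgeR adjusted p = 0.0223). Eln, the elastin gene, was at 42.6, 37.1 and 38.5 CPM on col1-ACLP and at 66.7, 52.8 and 57.9 CPM on col1 (−0.58 ± 0.12, edgeR adjusted p = 0.0172), just past the minimum fold. Both calls were lost without col1-ACLP 2 (Mfap2 −0.71 and Eln −0.54), without col1-ACLP 3 (−0.81 and −0.57), without col1 1 (−0.77 and −0.49) and without col1 3 (−0.69 and −0.61).

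Other genes of the list passed the adjusted p at a smaller fold. Fbln2, another elastic fibre gene, was at 2137, 1612 and 1688 CPM on col1-ACLP and at 1399, 1307 and 1083 CPM on col1 (0.52 ± 0.12, edgeR adjusted p = 0.0304). Ltbp1, a relative of Ltbp2 that binds latent TGFβ, was at 123, 106 and 111 CPM on col1-ACLP and at 157, 160.0 and 163 CPM on col1 (−0.50 ± 0.10, edgeR adjusted p = 0.0132). Neither gene's groups overlapped. Fbln2 missed the p without col1-ACLP 1, col1-ACLP 3, col1 2 or col1 3 (0.0716 to 0.182), and Ltbp1 without col1-ACLP 2, col1-ACLP 3 or col1 3 (0.0582 to 0.0984).

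**Figure D4:**
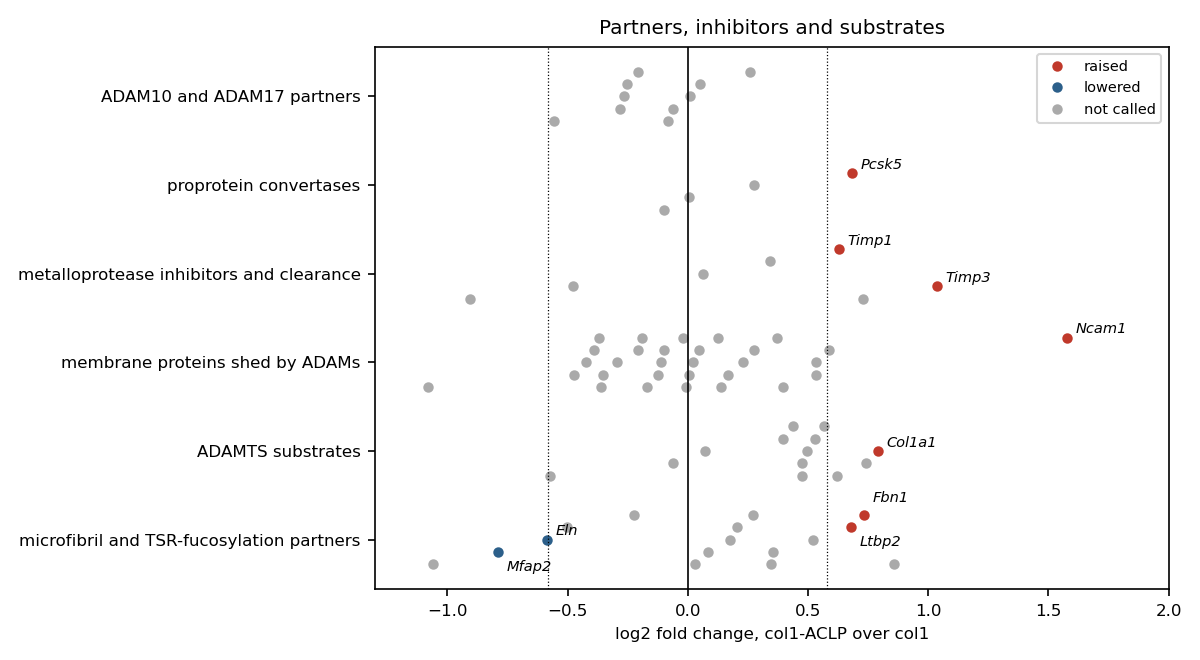
Log2 fold change of col1-ACLP over col1 for the 80 tested genes of the 6 lists, 1 point per gene and 1 row per list; the vertical place within a row only spreads the points. Dotted lines mark the fold minimum of 0.58, and the 7 raised genes (Ncam1 highest at 1.58) and 2 lowered genes are named.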

How the data were processed

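Whole-number read counts, not normalized, were deposited by the authors in 1 table with the position and length of each gene. PolyA libraries were made and sequenced by a company, and the study's methods and the submitters' notes name HISAT2 for mapping. The notes name the build mm10 and the methods GRCm39. The positions of 55 of the 58 genes start at or near (within the tolerance of 1000 bases) those of GENCODE vM39, so coordinates are given as GRCm39. The program used for counting is not given in the sources used here. The table held 0 other per-sample columns.

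Genes were filtered with filterByExpr (minimum count 10, minimum total 15), scaled by TMM and tested with edgeR 4.0.16 in R 4.3.3 (quasi-likelihood, two-sided, group as the only factor), which was tested on simulated data. The alternatives used DESeq2 1.42.0, limma-voom 3.58.1, other scalings and filters, a replicate block and leaving out each library. The block was no main term: same-numbered libraries deviated with correlations of −0.029 to −0.010. Within groups, libraries differed by more than sampling noise (chi-square per degree of freedom 22.31 to 61.43).

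Values per library were given for genes with an adjusted p under 0.05 or an unadjusted p under 0.05 and for the 3 most abundant genes of each class, and of the lists for genes past the adjusted p and Timp1 to Timp4. The genes and lists were chosen with earlier results of these data known. Intervals are at 95%, and floors cover counting error only.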

Additional observations from a re-analysis of the deposited data

How the results depend on the processing

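Under all 15 alternatives Adamts6 and Adamts12 were called raised and Adamts15 lowered. Adamtsl3 was also called by DESeq2 and with no filter on low counts. Over all tested genes the 245 calls became 389 with no filter (200 raised) and 148 to 289 when 1 library was left out, with 68 to 166 raised and 71 to 123 lowered; the lowest counts came without col1-ACLP 3 (148 in all, 71 lowered) and without col1-ACLP 1 (68 raised). With the adjusted p alone 199 genes were lowered.

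Of the listed partner genes, 16 passed the adjusted p alone, 11 higher and 5 lower, against 9 called. When 1 library was left out, 6 to 11 were called, 5 to 11 raised and 0 to 3 lowered, and limma-voom lowered 1. Mfap2 and Eln both missed the thresholds without col1 3 (edgeR adjusted p = 0.116 and 0.0527), without col1-ACLP 2 (0.0647 and 0.0577) and without col1-ACLP 3 (0.0864 and 0.102). They also missed them without col1 1 (0.0751 and 0.0705), and Eln missed the fold minimum with limma-voom. Fbn1 lost its call in 7 alternatives, DESeq2 included (adjusted p = 0.15), and Ltbp2 fell to 0.53 without col1-ACLP 1, below the fold minimum.

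Signs turned only in genes near 0 that were not called: the log2 fold change of Adam9 was 0.005 without col1-ACLP 2, Adamts1 was 0.076 without col1 2 and 0.000 without col1-ACLP 2, and Adamts2 was 0.066 without col1 1 and 0.049 without col1-ACLP 2. Leaving out 1 library gave −0.241 to 0.005 for Adam9, −0.117 to 0.076 for Adamts1 and −0.164 to 0.066 for Adamts2. The cause was not tested. Of 517 values over 37 named genes, 484 kept their sign and stayed called or not called, by adjusted p and fold together.

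With the replicate number as a block, all genes gave 194 calls and the family 3, the same 3 genes, while Notch1 and Ltbp1 had edgeR adjusted p of 0.11 and 0.0501. No same-numbered pair of libraries correlated above 0.1, so the numbers are not taken as pairs.

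The scarcest tested genes had wide intervals: Adamts16, for example, had a 95% interval of −1.76 to 1.62, with counts of 34, 7 and 23 on col1. The parts of depth and of the spread between libraries in that width were not tested. A difference within such an interval was not detectable with these libraries.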
